A study of Drosophila melanogaster with 12 samples.

Results

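The regions described here are the 902 peaks of accessible chromatin that were called in insulin-exposed S2 cells and overlapped no peak called in vehicle-exposed cells by 1 bp or more, out of 9726 peaks in the insulin list. The members were chosen by the presence or absence of a peak in the 2 peak lists, so the presence of a peak after insulin and its absence after vehicle are the rule and not a result. Whether accessibility at each member differed between the treatments was not tested here. In the study's own count test, the peaks found more accessible after insulin were fewer than these members. For comparison, 1275 of the 9560 vehicle peaks overlapped no insulin peak, and 8824 insulin peaks overlapped a vehicle peak. S2 cells are a macrophage-like line derived from embryos of Drosophila melanogaster, and the labels give them as male and of Oregon-R origin. After 24 h in medium lacking serum, the cells of both groups received insulin, at 10 µM by the study's methods (the labels write 10 M), or the vehicle, 25 mM HEPES, for 4 h. ATAC-seq was performed on 3 insulin and 3 vehicle samples of 60000 sorted cells that excluded DAPI, and RNA-seq on 3 insulin and 3 vehicle samples. The study calls the ATAC-seq samples biological replicates, and nothing says whether the RNA-seq samples were separate cultures, so RNA p-values measure the spread between these samples, which may be technical.

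In ATAC-seq a transposase inserts sequencing adapters where DNA is not covered by nucleosomes, and a peak is a stretch with many insertions. Insulin signalling in flies passes through the kinases Akt and TOR. Akt keeps the transcription factor FOXO out of the nucleus, and TOR and Myc favour the making of ribosomes, which needs 5S rRNA and tRNA from RNA polymerase III as well as rRNA from RNA polymerase I. Peaks at transcription start sites (TSSs) mark promoters, peaks in introns and between genes often mark enhancers, and coding exons of Drosophila are richer in G and C than the DNA around them.

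Strong members of several kinds show what these regions look like as sequence. Each is a stretch of 200 bp on the plus strand of dm6, read from the RefSeq assembly and taken from the centre of the peak, except that the tRNA stretches were shifted to hold a tRNA gene and the lab stretch was shifted off annotated exons. Capitals mark the annotated tRNA gene in the first pair, annotated coding sequence in the second pair, and matches to any of 14 searched motifs in the others.
tRNA:Pro-TGG-1-2 (chr3R:17619841-17620040, score 126): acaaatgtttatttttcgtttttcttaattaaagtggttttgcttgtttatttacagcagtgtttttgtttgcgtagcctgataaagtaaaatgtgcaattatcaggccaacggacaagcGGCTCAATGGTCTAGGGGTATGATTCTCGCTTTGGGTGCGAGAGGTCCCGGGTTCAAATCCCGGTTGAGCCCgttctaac
tRNA:Asp-GTC-2-1 (chr2L:5240691-5240890, score 108, within the receptor gene tkv): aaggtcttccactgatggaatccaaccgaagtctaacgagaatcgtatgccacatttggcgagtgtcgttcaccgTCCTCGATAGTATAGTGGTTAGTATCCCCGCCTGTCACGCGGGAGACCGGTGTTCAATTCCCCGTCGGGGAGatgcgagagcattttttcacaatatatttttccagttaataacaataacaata
CG14384 coding exon (chr3R:12966036-12966235, score 85): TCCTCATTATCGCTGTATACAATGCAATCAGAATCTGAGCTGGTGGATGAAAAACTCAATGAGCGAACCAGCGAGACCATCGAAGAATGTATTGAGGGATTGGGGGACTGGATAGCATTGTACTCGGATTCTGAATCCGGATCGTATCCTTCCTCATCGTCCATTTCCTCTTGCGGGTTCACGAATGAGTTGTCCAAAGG
ZIPIC coding exon (chr3R:30036581-30036780, score 76): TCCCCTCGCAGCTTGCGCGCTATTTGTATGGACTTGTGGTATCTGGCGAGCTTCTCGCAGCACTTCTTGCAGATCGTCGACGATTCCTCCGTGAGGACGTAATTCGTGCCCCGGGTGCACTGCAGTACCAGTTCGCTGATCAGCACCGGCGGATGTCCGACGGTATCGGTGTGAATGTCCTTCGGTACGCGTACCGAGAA
Pvf3 intron (chr2L:7150576-7150775, score 124): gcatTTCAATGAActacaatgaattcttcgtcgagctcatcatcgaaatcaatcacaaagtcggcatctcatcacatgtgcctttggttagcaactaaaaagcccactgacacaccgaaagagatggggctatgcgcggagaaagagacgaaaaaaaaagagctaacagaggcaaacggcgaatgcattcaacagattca
eyg promoter (chr3L:12468096-12468295, score 141): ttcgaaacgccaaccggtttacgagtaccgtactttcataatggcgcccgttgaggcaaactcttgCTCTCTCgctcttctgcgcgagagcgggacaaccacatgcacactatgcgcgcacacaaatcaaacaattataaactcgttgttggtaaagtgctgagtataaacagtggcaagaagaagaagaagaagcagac
lab promoter (chr3R:6678591-6678790, score 120): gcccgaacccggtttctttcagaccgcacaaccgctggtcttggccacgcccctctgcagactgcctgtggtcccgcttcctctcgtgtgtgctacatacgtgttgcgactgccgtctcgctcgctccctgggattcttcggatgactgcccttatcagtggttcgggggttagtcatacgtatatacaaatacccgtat
CG6149 downstream region (chr3L:11432006-11432205, score 135): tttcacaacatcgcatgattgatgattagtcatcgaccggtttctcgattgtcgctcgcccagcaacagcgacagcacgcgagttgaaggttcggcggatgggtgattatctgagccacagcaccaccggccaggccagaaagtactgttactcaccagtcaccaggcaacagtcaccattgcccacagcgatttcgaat

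The tRNA stretches hold a whole gene of 72 bp in DNA of 42.0% and 46% GC. The ZIPIC stretch, in the gene of a zinc finger protein that binds insulators, is coding throughout and has 57.5% GC, and the CG14384 stretch is also coding throughout and has 46.5% GC. The Pvf3 stretch holds a match to the STAT motif TTCNNNGAA, and the eyg stretch holds a run that matches the GAGA motif, GAGAGAG on the other strand. No searched motif occurs in the stretches of lab (57.0% GC) and CG6149 (53.0% GC). Pvf3 encodes a ligand of the PVR receptor, eyg a Pax transcription factor of eye development, and lab the most anterior homeotic protein. The region near CG6149 is one of 4 members among the 12 regions that the study cloned into reporters, with regions annotated to Snoo (score 62), aln (score 39) and CG34195 (score 30).

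Most members were weak and narrow peaks. The score that the authors' peak pipeline gave each peak had a median of 39 in the members (range 20 to 204), against 129 in the shared insulin peaks. Of the members, 759 (84.1%) scored below 63, the lower quartile of the insulin list, and 12 scored at or above the list's median of 115. Their width had a median of 380 bp, against 685 bp for shared insulin peaks. Both values bear on whether a peak is called in a list and are given as a description only. In the study's quality tables the non-duplicate reads were more in each insulin ATAC-seq sample than in each vehicle sample. The closest samples of the groups were nearly equal, and total mapped reads did not separate the groups. The part of depth in which weak peaks stand in a single list was not tested. The highest scores belonged to a peak in an intron of Shrm, which encodes an actin-binding protein (204), a peak annotated to the integrator subunit gene IntS3 at 57307 bp upstream of its TSS (185), and the eyg promoter peak shown above (141). They were followed by the CG6149 region (135), CG16894 (134), tRNA:Pro-TGG-1-2 (126), Pvf3 (124), the promoter of the axon guidance gene NetA (121), and the promoters of PGRP-LB and lab (120 each).

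Members lay close to other accessible DNA in many cases. The distance to the nearest vehicle peak had a median of 1170 bp, with 402 members within 1 kb and 72 farther than 10 kb. Just inside the rule, peaks at Bin1 and ec lay 10 bp from a vehicle peak and a peak at Pmvk 20 bp, with scores of 27, 55 and 30. Just outside it, peaks at Lamtor2, CG12535 and 2SrRNA:CR45864 overlapped a vehicle peak by 10 bp, with scores of 51, 47 and 47. The most isolated member lay 186480 bp from any vehicle peak, in the innexin gene shakB, followed by the promoter of the adhesion gene Fas3 at 122050 bp. A pair of peaks on the Y annotated to CR41504 came next, and the promoters of NetA (95020 bp), Taf1 (94530 bp) and lab (62780 bp) were also among the 10 most isolated.

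Protein-coding sequence was the most frequent place of insulin-only peaks. The centre of the peak fell in coding sequence in 455 of 902 members, or 50.4% (95% Wilson interval 47.2 to 53.7%), against 192 of 1275 vehicle-only peaks, or 15.1% (13.2 to 17.1%), and 1451 of 8824 shared insulin peaks, or 16.4% (15.7 to 17.2%). Coding sequence makes up 16.7% of the assembled chromosomes used. Introns held 22.5% of member centres, against 37.4% of vehicle-only and 35.3% of shared peaks, and UTRs held 6.43%, against 20.7% and 18.6%. Intergenic DNA held 15%, against 21.2% and 18.4%. These intervals cover counting error only, since the authors called each list on the 3 samples of a treatment together, and no spread between samples can be given for a share of peaks.

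**Figure D1:**
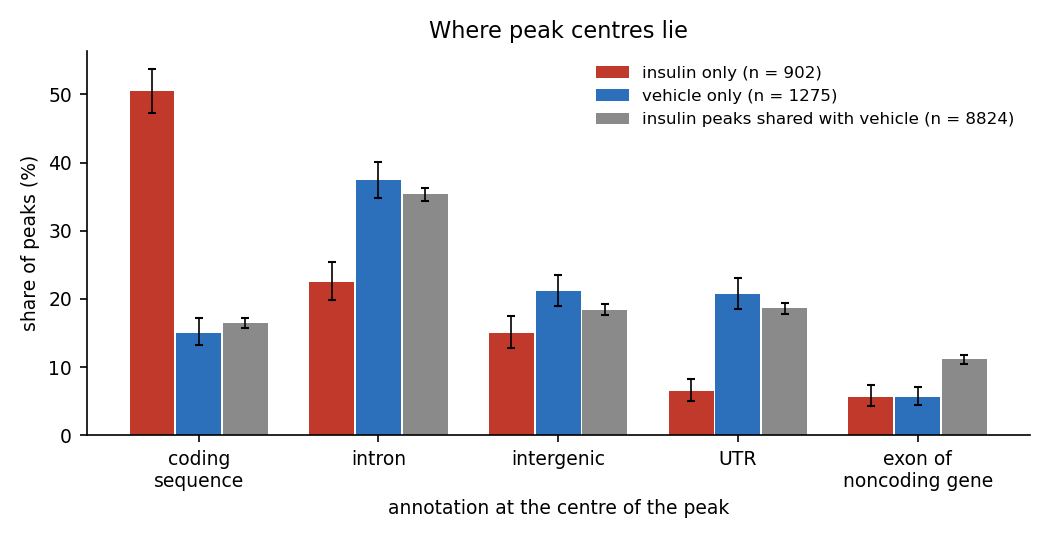
Share of peaks (%, vertical axis) by the annotation at the peak centre (horizontal axis) for insulin-only, vehicle-only and shared insulin peaks, with 95% Wilson intervals as error bars. Insulin-only peaks reach 50.4% in coding sequence, where the other sets stand at 15.1% and 16.4%, and are the lowest set in introns, intergenic DNA and UTRs.

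The coding share varied with the score. Among members with scores of 20 to 31, 70.9% were centred in coding sequence (64.2 to 76.8%, 196 peaks), and among those with scores of 54 to 204, 24.3% were (19.2 to 30.3%, 226 peaks). None of the 12 members at or above the median score of the list were. Shared insulin peaks in the same score ranges had coding shares of 49.5% (40.1 to 59.0%, 103 peaks) and 16.4% (15.4 to 17.5%, 4888 peaks). In between, at scores of 32 to 38, the share was 57.9% of members (50.9 to 64.6%) and 46.9% of shared peaks (40.4 to 53.4%), whose intervals overlap, and at 39 to 53 it was 51.9% of members (46.1 to 57.7%) and 33.4% of shared peaks (30.2 to 36.7%). The members' share was the higher in each of the 4 ranges, by less than in the sets as a whole, and scores within a range still differed. The weakest vehicle-only peaks, with vehicle scores of 20 to 39, had a coding share of 32.9% (27.8 to 38.4%, 301 peaks), against 55.9% in vehicle peaks of the same scores that were shared. Setting peaks side by side by score was chosen after seeing the data, and scores were compared only within a list.

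The feature class that the authors' annotation gives hides most of the coding peaks, because it names a peak a promoter whenever a TSS lies within 3 kb. In this annotation 636 members (70.5%) were promoter peaks, and 363 of these were centred in coding sequence. A TSS lay inside the peak in 124 of the 636 (19.5%), against 441 of 945 promoter peaks called after vehicle alone (46.7%) and 4491 of 6654 shared ones (67.5%). A further 360 members (56.6%) lay downstream of the TSS, where the gene body is, against 33.9% of vehicle-only and 19.1% of shared promoter peaks. Of all members, 734 (81.4%) had their centre within the body of at least 1 gene, called the host gene here, and in 502 a host was also the gene to which the peak was annotated. For 435 members (48.2%) the annotated gene had another, shared peak within 1 kb of a TSS, and for 284 (31.5%) the member was the only peak annotated to the gene.

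Insulin-only peaks were GC-rich inside and outside coding sequence. The central 300 bp had a median of 52.0% GC (quartiles 47.3 and 56.3%), against 44.0% (38.7 and 48.7%) in vehicle-only and 46% (41.0 and 51.0%) in shared peaks, beside 42.1% for the chromosomes as a whole. More than 50% GC was found in 59.6% of members, against 19.7% of vehicle-only and 28.9% of shared peaks. In coding sequence the medians were 55.3% in members, 53.0% in vehicle-only and 53.7% in shared peaks. Elsewhere they were 48.0%, 42.7% and 45%, and the same order held separately for introns (47.0, 44.0 and 45.3%), intergenic DNA (49.7, 40.8 and 44.3%) and UTRs (47.7, 42.7 and 45.7%). In each of the 4 score ranges above, members not centred in coding sequence had a median of 47.0 to 48.7%, against 44.2 to 45.7% for shared insulin peaks.

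**Figure D2:**
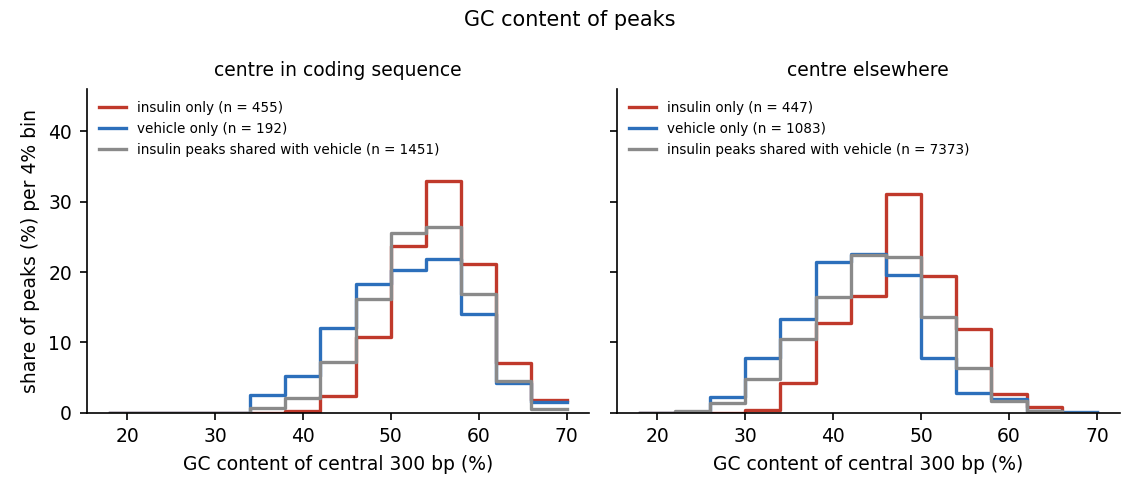
Share of peaks per 4% bin (vertical axis) by GC content of the central 300 bp (horizontal axis), for peaks centred in coding sequence (left) and elsewhere (right). Insulin-only peaks lie to the right of vehicle-only and shared peaks in both panels, with medians of 55.3% and 48.0%.

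Members were spread unevenly over the chromosomes. The X held 107 members, or 11.9% (9.91 to 14.1%), against 308 of the vehicle-only peaks, or 24.2% (21.9 to 26.6%), and 15% of shared peaks. The Y held 17 members, or 1.88% (1.18 to 3.0%), against 2 vehicle-only peaks, or 0.16%, and 109 shared peaks, or 1.24%, a share within the members' interval. On 3R the share was 25.3% of members, 19.3% of vehicle-only and 23.6% of shared peaks. The GC content of the members was similar on the large arms, with medians of 51.5 to 53.3%, and lower on chromosome 4, at 45%. More than 50% of the central 300 bp was repeat-masked in 4.3% of members, against 5.8% of vehicle-only and 8.8% of shared peaks.

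Of 14 short motifs, some were more and others less frequent in members than in the other sets. The central 300 bp was searched for them on both strands, and the same search was run on the 300 bp around the starts of 13900 coding genes. The DNA replication-related element TATCGATA, bound by DREF at promoters of housekeeping genes, occurred in 0.44% of members, against 4.71% of vehicle-only peaks, 2.22% of shared peaks and 9.27% of promoters. The M1BP motif GGTCACACT, also of housekeeping promoters, occurred in 0.55%, against 3.22%, 2.05% and 6.05%. The FOXO motif GTAAACA occurred in 3.55%, against 7.22%, 7.63% and 9.24%, and outside coding sequence in 5.37% of members, 7.76% of vehicle-only and 8.14% of shared peaks. The GAGA motif GAGAGAG occurred in 4.66%, against 8.63%, 11.6% and 5.85%. Outside coding sequence it occurred in 8.72% of members, 9.51% of vehicle-only and 13.5% of shared peaks. The Myc motif CACGTG occurred in 5.21%, against 3.37%, 4.07% and 4.18%, and the AP-1 motif TGANTCA in 8.43%, against 8.16%, 8.61% and 6.18%. The E-box CAGCTG occurred in 20.2%, against 17.6%, 16.1% and 17.7%, the Zelda motif CAGGTAG in 2.55%, against 1.88%, 1.93% and 1.63%, and the ETS motif CCGGAAGT in 1.11%, against 0.63%, 0.45% and 0.38%. Outside coding sequence, AP-1 occurred in 11.9% of members, 8.49% of vehicle-only and 9.11% of shared peaks. In the same order CAGCTG occurred there in 17.2%, 16.9% and 14.8%, and ETS in 0.45%, 0.46% and 0.39%. The Myc motif occurred there in 5.15%, 3.42% and 3.95%, and Zelda in 2.68%, 1.57% and 1.64%. TATCGATA stood at 0.67%, 5.45% and 2.47%, and M1BP at 0.89%, 3.69% and 2.27%. Base composition and coding share also differed between the sets, and their part in these shares was not tested. A match describes the letters in a window and no more.

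Genes of RNA polymerase III stood under 23 members, and 1 further member covered the precursor of the microRNA mir-4919. Overlap with a gene for a small RNA was found for 24 of 902 members, 9 of 1275 vehicle-only peaks and 144 of 8824 shared peaks. Of these, 13 members, 0 vehicle-only peaks and 7 shared peaks lay over 5S rRNA genes, which form 1 array. Without the array 11 members remained. The tRNA members were 10 of the 902, over 13 of the 314 tRNA genes. Against this stood 1 of the 1275 vehicle-only peaks, over 2 genes, and 73 of the 8824 shared peaks, over 123 genes. Whether these shares differ between the sets was not tested. Besides the pair shown above, they lay at tRNA:Leu-CAG-1-8 (score 108), tRNA:Val-CAC-2-6 (score 85), tRNA:Phe-GAA-1-2 (score 74), tRNA:Cys-GCA-3-1 (score 73), tRNA:Asp-GTC-1-3 (score 67), tRNA:Phe-GAA-1-7 (score 63), tRNA:Glu-CTC-3-4 (score 51) and tRNA:Arg-TCG-2-1 (score 51). All 10 scored above the members' median of 39. No member overlapped a gene for a snoRNA or snRNA, which 36 and 12 of the 8824 shared peaks did.

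The remaining 13 polymerase III members stood in the tandem array of 5S rRNA genes, 100 gene copies over 36.7 kb of 2R (19729562 to 19766278). In this array the insulin list held 20 peaks, 13 of them members, which together covered 22.2 kb or 60.6% of the array and lay over 70 copies. The vehicle list held 8 peaks, which covered 4.3 kb or 11.6% and lay over 17 copies, and none of the 8 was without an insulin peak. The 13 members had scores of 47 to 114, and the authors' mean normalized ATAC-seq count over the libraries of both treatments was 243 to 364 per kb of peak, against a median of 361 over all members. The copies are nearly identical and reads with several matches were placed at random, so single copies cannot be told apart, and the 13 members are not independent regions. RNA of the 5S genes was not analysed here, and of the 13 tRNA genes 1 was in the RNA-seq count table.

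**Figure D3:**
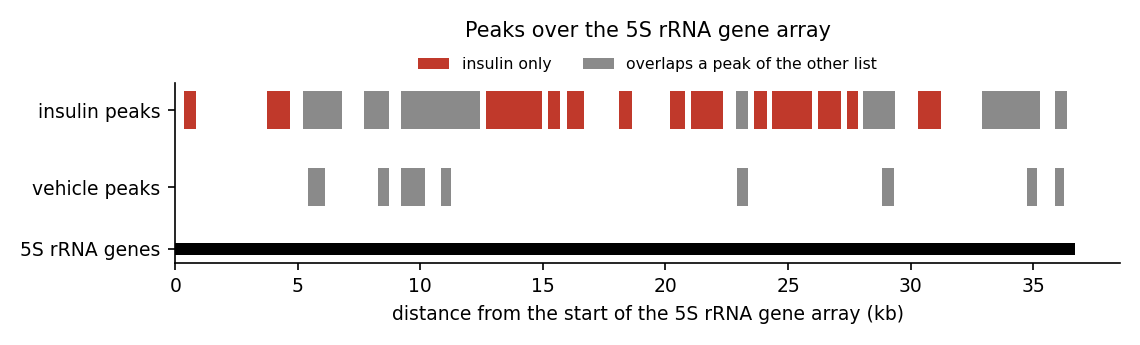
Peaks of the insulin list (top) and of the vehicle list (below) along the 36.7 kb array of 5S rRNA genes, plotted as distance from the array start in kb. Red bars are the 13 insulin-only peaks and grey bars peaks that overlap a peak of the other list; insulin peaks cover 60.6% of the array and vehicle peaks 11.6%.

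The gene 2SrRNA:CR45864 had 10 members annotated to it, the most of any gene, but none lay over it. These peaks on the X were 49871 to 241851 bp downstream of its TSS, and 0 members overlapped any of the 51 rRNA genes outside the 5S array. Its RNA was 9.15, 8.09 and 2.47 CPM (counts per 1000000 counts of the library) in the insulin libraries, against 22.6, 14.2 and 6.36 CPM in the vehicle libraries. The libraries of the treatments overlapped, the gene did not pass (adjusted p = 0.303 in edgeR's quasi-likelihood test), and rRNA had been removed before sequencing.

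The genes that carry insulin-only peaks changed in RNA about as often as other genes with peaks. The members were annotated to 768 genes, of which 622 were in the count table and 559 passed the filter on low counts. Of these 559, 174 (31.1%) rose and 136 (24.3%) fell after insulin in edgeR's quasi-likelihood test at an adjusted p under 0.05. The background was 27.0% risen and 23.1% fallen over all 8683 genes tested, and 30.7% risen and 25.5% fallen over the 4595 tested genes with any annotated peak. The median log2 fold change was -0.01 (quartiles -0.18 and 0.21), against -0.01 over all genes tested (quartiles -0.20 and 0.20). Of the 661 host genes, 565 were tested, 175 (31.0%) rose and 157 (27.8%) fell, with a median of -0.002. A gene that passed the filter had to be expressed, so these shares do not cover the members' genes with little RNA.

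**Figure D4:**
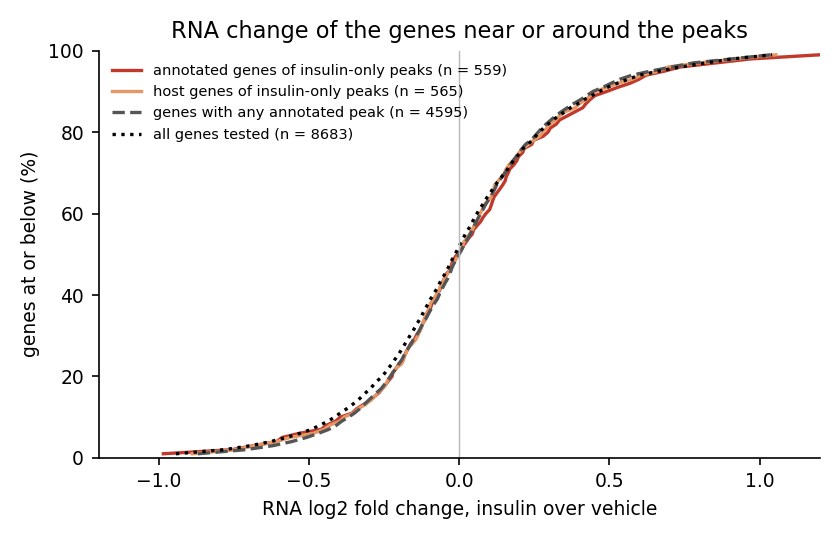
Percentage of genes (vertical axis) with an RNA log2 fold change, insulin over vehicle, at or below the value on the horizontal axis, drawn from the 1st to the 99th percentile. The curves of the 559 annotated and 565 host genes of insulin-only peaks run with those of all genes with a peak and of all 8683 genes tested.

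The shares varied with position. Where the peak held the TSS, 26 of 83 tested genes (31.3%) rose and 15 (18.1%) fell. For shared peaks that held the TSS 32.8% rose and 26.4% fell, and for vehicle-only peaks 28.4% and 31.6%. Of genes with a member in a promoter of 1 kb or less, 77 of 248 (31.1%) rose and 56 (22.6%) fell, and of host genes with a member centred in coding sequence, 120 of 377 (31.8%) rose and 102 (27.1%) fell. Host genes of members in introns rose in 47 of 165 cases (28.5%) and fell in 55 (33.3%). Host genes of shared peaks in introns rose in 31.2% and fell in 31.5%, and those of vehicle-only peaks in 23.6% and 37.3%. By annotated class, the fallen share was 22 of 71 (31.0%) for promoters 2-3 kb from the TSS, 20 of 66 (30.3%) for exons, 19 of 54 (35.2%) for introns and 7 of 20 (35.0%) for distal intergenic members, against the 25.5% of genes with any peak. The corresponding shares for shared insulin peaks were 34.8%, 29.4%, 34.6% and 17.4%. For vehicle-only peaks, 246 of 916 annotated genes (26.9%) rose and 274 (29.9%) fell. Whether these shares differ between the sets of peaks was not tested.

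The largest rises among annotated genes were of 1.03 or more on the log2 scale. The nucleolar protein gene Nnp-1 had 283, 288 and 287 CPM after insulin, against 108, 110 and 116 CPM after vehicle (log2 fold change 1.36, SE 0.04, adjusted p = 8.2e-30 in edgeR's quasi-likelihood test), and its member lay in its coding sequence. The gene nop5, for a core protein of box C/D snoRNA particles, had 451, 451 and 468 CPM, against 184, 180 and 191 CPM (1.30, SE 0.03), and its member covered its TSS, in a stretch that x16 also hosts. The insulin libraries were above the vehicle libraries for both genes, without overlap.

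The coactivator gene srl, the fly counterpart of PGC-1, which promotes mitochondrial genes in insulin-stimulated flies, had 348, 336 and 339 CPM after insulin, against 137, 137 and 152 CPM after vehicle (log2 fold change 1.26, SE 0.04). Its member lay 1116 bp upstream of the TSS, in coding sequence of the translation factor gene eIF3a. Ant2, an ADP/ATP translocase of mitochondria, had 71.2, 74.4 and 71.3 CPM, against 32.3, 30.5 and 34.4 CPM (1.15, SE 0.06). CG16758, with 2 members annotated, had 8.23, 9.10 and 8.09 CPM, against 1.98, 2.10 and 2.85 CPM (1.84, SE 0.19), and drd had 5.86, 5.35 and 6.45 CPM, against 1.65, 2.96 and 2.28 CPM (1.37, SE 0.22). The largest rises also held CG5033 (1.04), CG7142 (1.03) and the ribosome maturation gene Tsr1 (1.03). Host genes added CG30349 (1.08), Aatf (1.00) and the extracellular matrix gene Kal1 (0.93).

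The 10 largest falls among annotated genes ran from -1.33 to -0.61 on the log2 scale. Cyp6a8, a cytochrome P450, had 18, 20.1 and 20.3 CPM in the insulin libraries, against 47.3, 49.4 and 49.5 CPM in the vehicle libraries (log2 fold change -1.33, SE 0.08, adjusted p = 7.5e-19 in edgeR's quasi-likelihood test), with its member 2811 bp upstream. CG10026 had 5.66, 4.91 and 4.80 CPM, against 11.6, 10.9 and 10.5 CPM (-1.08, SE 0.15). The gene rudhira, a protein of migrating blood cells, had 137, 133 and 140 CPM, against 269, 263 and 266 CPM (-0.96, SE 0.04), and its member lay in coding sequence of 63.3% GC. The groups did not overlap for these 3 genes. The other 7 annotated genes with the largest falls ran from -0.77 (CG30456) to -0.61 (the resolvase gene Gen), and included CG12769, CG34355, Tango2, CG12768 and CG30460. Among host genes, the engulfment receptor gene drpr had 51.6, 47.7 and 57.2 CPM, against 101, 97.1 and 95.1 CPM (-0.90, SE 0.05), and CG32984 (-0.84), CG17230 (-0.80), Ppt2 (-0.74) and CG41520 (-0.74) also fell. Members thus stood at genes that rose and at genes that fell.

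**Figure D5:**
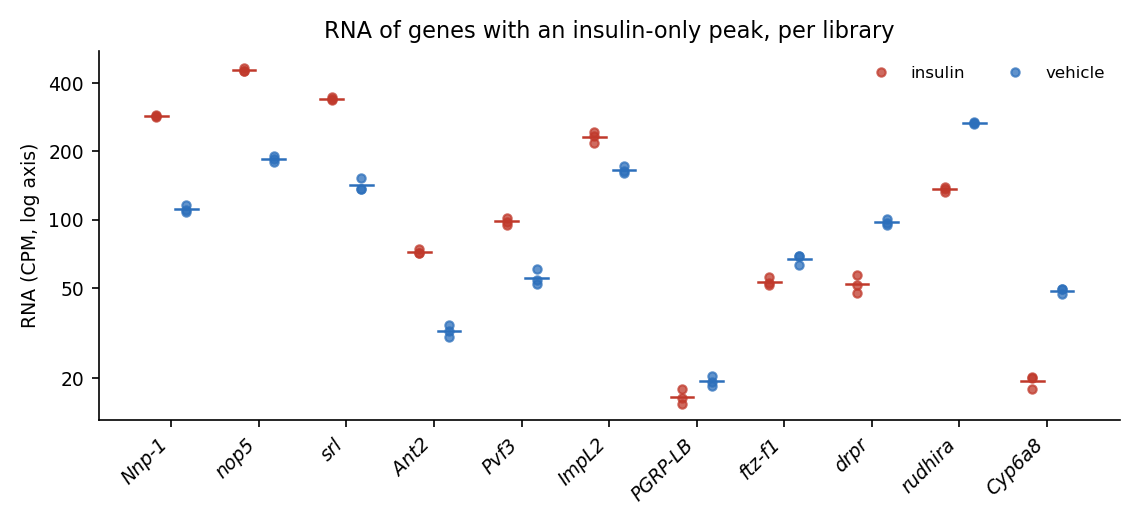
RNA in CPM on a log axis for 11 genes that carry an insulin-only peak, one point per library (3 insulin in red, left, and 3 vehicle in blue, right) with a line at the mean. The 6 genes from Nnp-1 to ImpL2 are higher after insulin in every library, and the 5 genes from PGRP-LB to Cyp6a8 are lower in every library, though PGRP-LB did not pass the test.

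Some genes of insulin signalling carried members. Of the 24 tested genes of a list for insulin and TOR signalling, 10 rose and 6 fell, against 27.0% and 23.1% of all genes tested. Of the 24, 4 carried a member (srl, described above, ImpL2, Akt and step), against 734 (8.5%) of all genes tested. ImpL2, a secreted protein that binds insulin-like peptides, had 244, 217 and 235 CPM in the insulin libraries, against 165, 160 and 172 CPM in the vehicle libraries (log2 fold change 0.49, SE 0.04), and its member lay 1734 bp upstream. Akt (Akt1 in the files) had 220, 215 and 208 CPM, against 240, 252 and 235 CPM (-0.18, SE 0.04), with a member in coding sequence 381 bp from the TSS. The cytohesin gene step, whose protein acts upstream of Akt, did not pass, with 292, 289 and 292 CPM, against 275, 288 and 283 CPM (0.04, adjusted p = 0.278 in edgeR's quasi-likelihood test). Of 21 tested ribosome biogenesis genes 20 rose and 1 fell, with a median log2 fold change of 1.04, and nop5 was the one gene of that list with a member.

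Pvf3 and Pvf2 encode ligands of PVR, the fly receptor for PDGF- and VEGF-like factors, and both carried members. Pvf3 had 102, 94.9 and 98.2 CPM after insulin, against 54.2, 60.5 and 52.2 CPM after vehicle (log2 fold change 0.83, SE 0.05, adjusted p = 1.9e-17 in edgeR's quasi-likelihood test), and held the intronic member whose sequence is given above. Pvf2 had 533, 532 and 522 CPM, against 394, 388 and 408 CPM (0.42, SE 0.03), and 3 members were annotated to it, 566, 6166 and 9326 bp upstream. The insulin libraries were above the vehicle libraries for both genes. Pvf1, for another ligand, carried no member and fell, with 2.89, 2.47 and 2.85 CPM, against 6.60, 5.06 and 6.07 CPM (-1.04, SE 0.20), and was named after its values were seen.

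Most of the tested ecdysone response genes fell. Of 8 tested genes of this list 0 rose and 6 fell, against 27.0% and 23.1% of all genes tested. The 6 were EcR, Eip74EF, Eip75B, Eip93F, ftz-f1 and usp, which encode nuclear receptors and early regulators of the steroid hormone response. The median log2 fold change of the 8 was -0.28, and 3 of the 6 carried a member, against 8.5% of all genes tested. The nuclear receptor gene ftz-f1 had 52.6, 51.9 and 55.7 CPM in the insulin libraries, against 69.2, 63.0 and 69.3 CPM in the vehicle libraries (-0.34, SE 0.06), and its member lay in an intron with a score of 78. Eip75B had 96.2, 88.9 and 105 CPM, against 113, 108 and 108 CPM (-0.18, SE 0.05). Eip93F had 2.78, 2.46 and 3.02 CPM, against 5.06, 4.56 and 3.80 CPM (-0.69, SE 0.22), and this call was lost with DESeq2 (adjusted p = 0.067) and without vehicle library X1 (adjusted p = 0.050 in edgeR's quasi-likelihood test).

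Of 19 tested immune response genes 3 rose and 11 fell, against 27.0% and 23.1% of all genes tested. A member was carried by 1 of the 19, against 8.5% of all genes tested. That gene, PGRP-LB, encodes an amidase that breaks down peptidoglycan and restrains the Imd pathway. Its RNA was 18, 16.5 and 15.5 CPM after insulin, against 20.6, 19.2 and 18.5 CPM after vehicle, and the gene did not pass (log2 fold change -0.21, adjusted p = 0.069 in edgeR's quasi-likelihood test, 0.0455 without insulin library X4). The overlapping gene CG17230, which hosts the same peak, fell (-0.80).

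Promoter members were found at genes with little or no RNA in these cells. Of 93 members that held the TSS of a protein-coding gene, 15 (16.1%) belonged to genes that were not tested, 6 with too few counts and 9 outside the count table. The same was true of 17 of 422 such vehicle-only peaks (4.0%) and of 185 of 4180 shared peaks (4.4%). The 15 included the homeobox genes lab (score 120) and unpg (score 80), gcm (score 36), the switch gene of glia and blood cells, the glutathione transferase gene GstD8 (score 51), the opsin gene Rh4 (score 36) and the alcohol dehydrogenase gene Adh (score 33). The highest count of unpg in any library was 15. Of a list of 45 developmental transcription factors, 17 were in the count table and 8 were tested. Of the tested genes 0 rose and 2 fell (Snoo and shn, by 0.13 each on the log2 scale), against 27.0% and 23.1% of all genes tested. A member was carried by 8 of the 45, a count that includes genes not tested. Among the 8 tested genes the carriers were toy, tsh, shn and Snoo, against 8.5% of all genes tested that carried a member. With DESeq2 the adjusted p of Snoo was 0.178 and that of shn 0.0558, and both calls were also lost without 1 of several libraries. The 8 of the 45 with a member were lab, pb, nerfin-1, toy, twi, tsh, shn and Snoo. NetA, with a strong member at its TSS, had 2.37, 1.30 and 2.61 CPM in the insulin libraries, against 1.98, 2.22 and 1.52 CPM in the vehicle libraries, which overlap.

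Several members fell together at some genes. At least 3 members were annotated to or hosted by each of 44 genes, 38 of them tested, of which 7 (18.4%) rose and 15 (39.5%) fell, against 27.0% and 23.1% of all genes tested. Mhcl, a myosin heavy chain gene, hosted 6 members, 4 of them in coding sequence, and had 47.9, 51.7 and 45.7 CPM after insulin, against 60.3, 55.6 and 62.6 CPM after vehicle (log2 fold change -0.30, SE 0.06). The Slit ligand gene sli hosted 5 members and had 1208, 1193 and 1235 CPM, against 1345, 1332 and 1346 CPM (-0.15, SE 0.03). The calcium pump gene SERCA, which hosted 3, had 876, 820 and 872 CPM, against 636, 637 and 657 CPM (0.41, SE 0.03). Slmap had 5 members annotated, all outside its body at 11711 to 39791 bp from the TSS, and rose with 307, 323 and 314 CPM, against 268, 283 and 297 CPM (0.15, SE 0.04). The 27 tested genes that hosted 3 or more members held 3 that rose (11.1%) and 13 that fell (48.1%). Both sets are small and were chosen by member count, and the difference from all genes was not tested.

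Most of 13 listed markers of plasmatocytes, the macrophages of the fly, had RNA in these cells, and most of those were lower after insulin. The count table held 10 of the 13, all tested, of which 0 rose and 9 fell, against 27.0% and 23.1% of all genes tested. The summed level of the 10 was 1540 to 1650 CPM in the insulin libraries, against 1918 to 1951 CPM in the vehicle libraries. Col4a1 and vkg held much of this sum, with means of 379 and 463 CPM after insulin, against 418 and 523 CPM after vehicle. The summed level of crystal cell markers was 0 CPM in all libraries, that of lamellocyte markers 757.5 to 782.7 CPM after insulin, against 702.0 to 730.9 CPM after vehicle (of 3 genes msn rose and ItgaPS4 fell, with a median log2 fold change of -0.15), and that of fat body markers 1.0 to 1.4 CPM, against 1.4 to 2.9 CPM. Neuron markers summed to 66.3 to 68.6 CPM after insulin, against 55.6 to 67.5 CPM after vehicle, muscle markers to 1.2 to 3.2 CPM, against 1.5 to 3.5 CPM, and germline markers to 120.5 to 129.8 CPM, against 134.2 to 137.4 CPM, with elav higher and aub lower past the test. In such bulk samples, fewer cells of a type and less RNA per cell cannot be told apart. Members lay in 4 of the 10 tested plasmatocyte genes, while 8.5% of all genes tested carried a member. The 4 were srp, drpr and the collagen IV genes Col4a1 and vkg. The 3 members in Col4a1 lay in coding sequence of 62.0 to 63.7% GC, and its RNA was 359, 364 and 413 CPM after insulin, against 408, 421 and 425 CPM after vehicle, with overlap between the groups (log2 fold change -0.14, SE 0.04, adjusted p = 0.014 in edgeR's quasi-likelihood test). The adjusted p was 0.0535 without vehicle library X3, 0.0621 without insulin library X4 and 0.114 without insulin library X5.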

How the data were processed

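ATAC-seq and RNA-seq of insulin- and vehicle-exposed S2 cells were analysed, 3 samples each. The authors aligned ATAC-seq reads to dm6 with Novoalign, with random placement of reads that matched several sites. Each treatment's 3 samples entered 1 MACS-based peak call. The deposited lists give a score per peak, used within a list only. Both lists were then merged and annotated with ChIPseeker by the authors, who also deposited a mean normalized ATAC-seq signal per merged peak over all 6 libraries. Their fold changes, p-values, pathway tables and normalized RNA values were not used. Counts per peak of single ATAC-seq samples and the read totals in the study's quality tables entered no calculation. By the study's methods, the ATAC-seq signal was normalized for read number before peak calling. No further adjustment for ATAC-seq depth was made here. RNA-seq reads were aligned with STAR to BDGP6 and featureCounts gave the counts per gene. As deposited, these raw counts are whole numbers that summed to 7132065 to 10256535 per library. The files name the insulin libraries X4, X5 and X6 and the vehicle libraries X1, X2 and X3. Reads were counted by strand, while the kit is not stated to mark strand, so overlapping genes may not be told apart. No versions of these tools were found.

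Each member coincided with 1 merged peak, from which class, distance and gene were taken. Host genes are those whose body in the authors' gene table holds the peak centre. Centres were assigned to coding sequence, UTR, other exon, intron or intergenic DNA in this order from the Ensembl annotation of BDGP6, whose coordinates were identical for 98.3% of the genes shared with the authors' table. RNA counts were tested in edgeR 4.0.16 by quasi-likelihood (limma 3.58.1, R 4.3.3), with TMM and filterByExpr, which kept 8683 of 10287 genes, at an adjusted p of 0.05 (Benjamini-Hochberg). CPM are TMM-scaled. In simulated counts of this comparison, on 8608 genes, 19 of 50 genes set to change 1.2-fold, 44 of 49 set to 1.5-fold and 7 of 8409 unchanged genes were called. Libraries of a treatment differed by more than sampling noise. Alternatives were DESeq2 1.42.0, RLE size factors, no filter, and leaving out each library; shares carry 95% Wilson intervals. Named genes were the 10 largest rises and falls past the threshold without overlap between groups and with 5 CPM or more on the higher side, and list genes with a member. Named members were those of highest score, farthest from a vehicle peak, at small RNA genes, cloned by the study, in genes with 3 or more members, or at the edge of the rule; genes with a TSS in a member and no tested RNA, and Pvf2 and SERCA among genes with several members, were singled out after their values were seen. 1 named gene is not reported here. The members and lists were chosen with earlier results of these data known. Python 3.11.15 with pandas 2.3.3, scipy 1.17.1 and matplotlib 3.10.9 was used.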

Additional observations from a re-analysis of the deposited data

How the results depend on the processing

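The number of members depends on the rule. It was 874 with no vehicle peak within 200 bp, 2292 where an overlap of 50% of both peaks was required for a shared peak, and 12 at or above the median score of the insulin list. With no vehicle peak within 200 bp, the class shares, the coding share and the GC median moved by less than their interval or spread. In the 12 high-scoring members, promoters of 1 kb or less made up 50%, promoters 1-2 kb from the TSS 0%, exons 0%, introns 25% and distal intergenic regions 16.7%, and 0% were centred in coding sequence. Their annotated genes rose in 33.3% and fell in 33.3% of tested cases. Their host genes rose in 16.7% and fell in 50%, and so few peaks limit all these shares. Among genes with no other peak, 29.55% rose and 16.5% fell. Without the 5S rRNA array, an alternative chosen after seeing the data, 11 members remained at small RNA genes. Over whole peaks, 5 of 14 motif shares moved beyond their interval.

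Counts of called genes stayed within 1.5 times under DESeq2, RLE size factors and no filter on low counts. Leaving out 1 library at a time gave 160 to 172 risen and 117 to 129 fallen annotated genes, and 157 to 176 risen and 134 to 155 fallen host genes. Over 711 alternative fits of 89 named genes, 38 lost and 10 gained the call, and 0 turned the direction of a called gene; the cause was not tested. The sign changed in 17 fits of 8 genes that did not pass in either fit. No paired analysis was possible because the columns of the count table carry no replicate numbers. Read totals of the ATAC-seq samples entered no calculation here, and the peak calls carry no spread between samples.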
